A study of Mus musculus with 6 samples.

Results

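The cytosolic ribosome is built from a small subunit, whose proteins are encoded by *Rps* genes, and a large subunit, whose proteins are encoded by *Rpl* genes. Most of these mRNAs begin with a stretch of pyrimidines, which lets the cell raise or lower their translation together. Male germ cells are a special case, because the X chromosome is silenced during meiosis and several ribosomal protein genes lie on it. Autosomal copies of X-linked genes, such as *Rpl10l* for *Rpl10* and *Rpl39l* for *Rpl39*, are expressed in germ cells, whereas *Rpl3l*, a copy of the autosomal *Rpl3*, is known from skeletal muscle and heart.

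The members were all probes on the array, control spots aside, named *Rpl* or *Rps* with a number, *Rplp0*, *Rplp1*, *Rplp2* or *Rpsa*. Names beginning with *Rps6k* (kinases) or holding -ps (pseudogenes) were left out. The rule, which used no measured value, took 85 of 27376 genes or transcripts by name, with 145 of 41174 probes. By name 46 genes encoded large subunit proteins, 31 small subunit proteins and 7 paralogues of these. The last member was *Rps19bp1*, which encodes a protein that binds ribosomal protein S19 and is not a ribosomal protein itself.

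Testis RNA from 3 *Prss55*-/- males (labelled Prss55KO) and 3 wild type (wt) males was hybridized to 6 single-dye arrays, with 1 array per mouse. PRSS55 is a membrane-anchored serine protease made in the testis. All mice were 6 to 8 weeks old and on a mixed 129Sv/C57BL/6 background, and the knockout allele was made by homologous recombination in all cells of the animal. Whole testis was used, so a smaller number of cells of a type and less RNA per cell cannot be told apart in any value given here.

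The share of spots well above background ran from 69.5% to 72.9% per array, and no spot was saturated. No slide held both genotypes (*Prss55*-/- on 1 and wt on 2), so slide and genotype cannot be told apart. *Prss55* itself (probe at chr14:64694275-64694333, mm9) read 15.08, 14.95 and 14.93 on the log2 scale on the *Prss55*-/- arrays and 15.87, 15.77 and 16.01 on the wt arrays. The groups did not overlap and the signal fell by 0.90 ± 0.08 (SE, n = 3 per genotype, limma adjusted p = 0.0100), to 53.6% of wt. The paper reports that PRSS55 expression was absent in the knockout, as RNA by RT-PCR and as protein by Western blotting and immunofluorescence. Where this probe lies relative to the deleted part was not established here. The adjusted p rose to 0.0596 without *Prss55*-/- replicate 2, to 0.0698 without *Prss55*-/- replicate 3 and to 0.0627 without wt replicate 1. Markers of spermatogonia (8), spermatocytes (12), round spermatids (10) and elongating spermatids (10) were tested wherever the array held them, whereas 5 of 9 epididymal markers were too dim. The 8 tested Leydig cell genes (of 8 on the array) had a median log2 difference of -0.53 (range -0.73 to 0.37), and 0 passed the adjusted test. The log2 of their summed signal ranged from 15.0967 to 15.7195 in *Prss55*-/- and from 15.7152 to 15.9173 in wt, so the ranges overlapped. For the 4 tested epididymal genes the log2 of the summed signal ranged from 8.96 to 9.36 in *Prss55*-/- and from 9.80 to 9.86 in wt. The log2 differences of these genes ran from -2.91 (*Rnase10*, limma adjusted p = 0.0925) to 0.53 with a median of -0.09, and 0 passed. The 10 macrophage genes had a median of -0.14 and the 10 round spermatid genes one of 0.14, and 0 of either passed. At an unadjusted limma p under 0.05 on the brightest probe, 5 of 10 round spermatid and 3 of 8 Leydig cell genes passed (50% and 37.5%). So did 2 of 10 macrophage and 1 of 4 epididymal genes (20% and 25%), against 20.0% of all tested genes. The part of these cells in the results below was not tested.

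No ribosomal protein gene differed between *Prss55*-/- and wt testis at the adjusted threshold. Of the 85 genes, 0 had a probe with a limma adjusted p under 0.05, whereas 1.71% of all 19181 tested genes had (0.798% with a probe higher and 0.923% with a probe lower in *Prss55*-/-). Read against 1.71%, a count of 0 among 85 is near the background. The lowest adjusted p was 0.0927, for *Rpl10*. At an unadjusted limma p under 0.05, 5 of the 137 tested member probes passed (3.65%), against 19.1% of all tested probes. Taking the brightest probe for each gene, 2 of 85 genes passed (2.35%), *Rpl10* and *Rpl23a*, against 20.0% of all tested genes. Among the 1137 tested genes at or above the members' lower quartile of signal, members included, 9.59% passed. The methods' t-test gave 13 member probes at an unadjusted p under 0.05 (9.49%, against 17.2% of all tested probes) and 0 after adjustment.

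**Figure D1:**
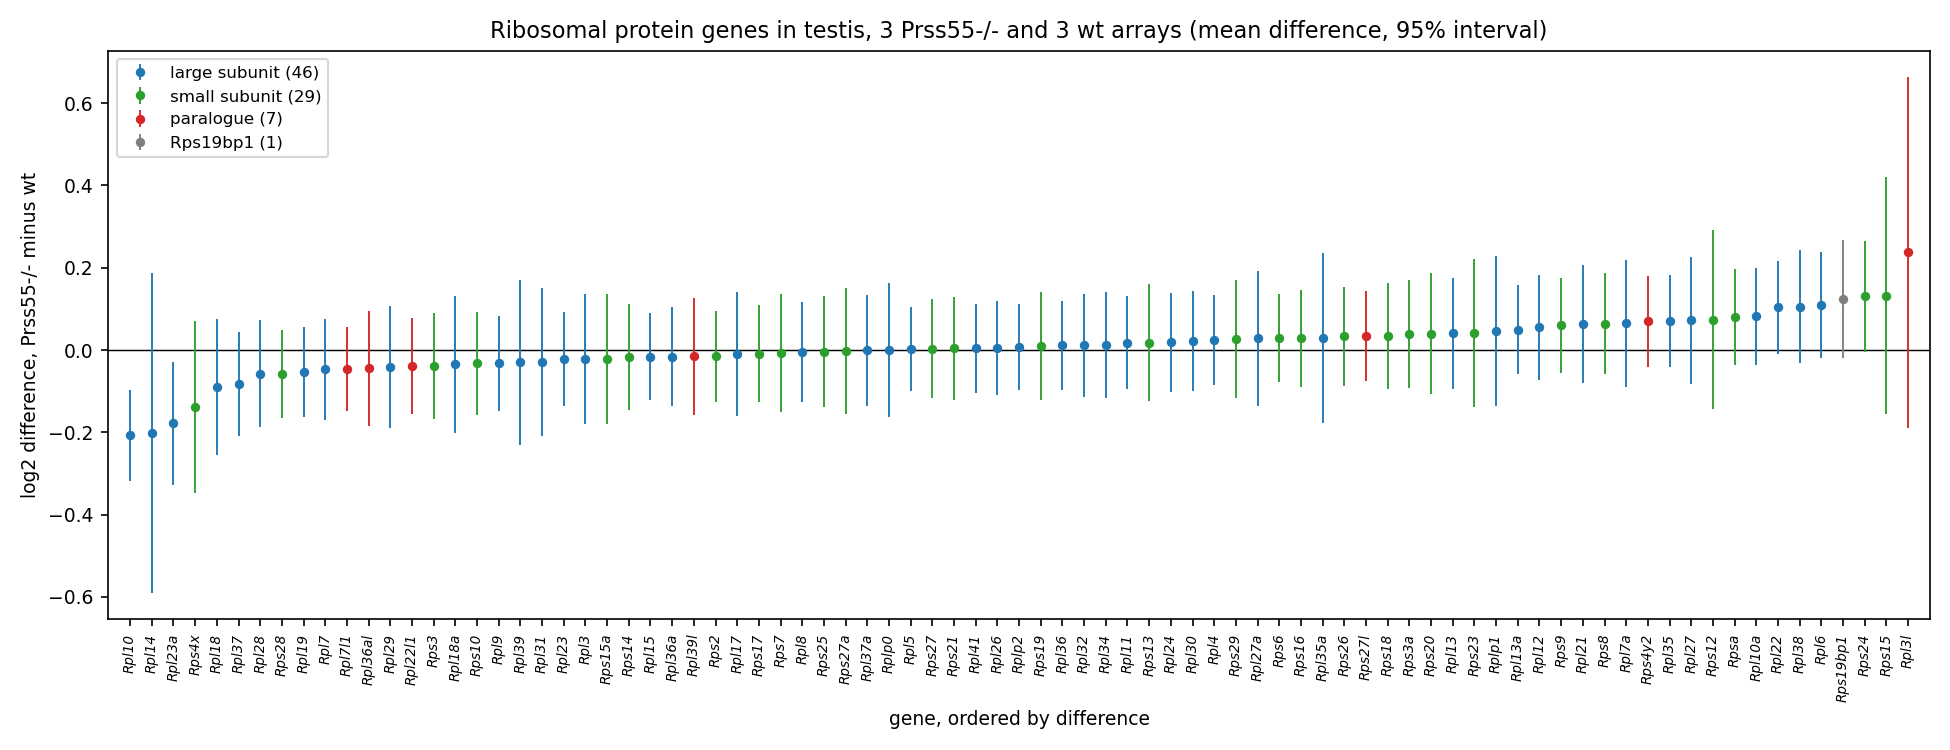
Log2 difference between 3 *Prss55*-/- and 3 wt arrays (y axis) for the brightest probe of 83 of the 85 genes (x axis, ordered by difference). Points are mean differences, bars 95% intervals from limma and colours the class of the protein. The differences run from -0.21 (*Rpl10*) to 0.24 (*Rpl3l*), and only the bars of *Rpl10* and *Rpl23a* leave out 0.

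The differences of the members lay close to 0. The median log2 difference over the 85 genes was 0.0074, beside -0.0023 over all tested genes, with 48 genes above 0 and 37 below. The middle 50% of the members ran from -0.02 to 0.04 and the whole range from -0.21 to 0.24. On its brightest probe no member reached a 1.2-fold difference in either direction, a size that 15.9% of all tested genes passed. Other probes of *Rpl21* and *Rpl7a* reached 1.46-fold and 1.38-fold. In 74 of 85 genes (87.1%) the log2 difference was within 0.1 of 0, against 51.7% of all tested genes. Probes of these genes are bright, and among the 1137 genes at or above the members' lower quartile of signal, members included, 79.4% lay within 0.1. Of these 1137 genes, 2.64% passed 1.2-fold.

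The 95% intervals were narrow for most members. They hold the scatter between arrays and not an offset between slides, which cannot be told apart from genotype. The 95% interval of the difference stayed inside 0.25 log2 either way for 75 of 85 genes (88.2%), against 40.9% of all tested genes and 76.7% of the genes of high signal. For 83 genes it stayed inside 0.5 and for all 85 inside 1. The median within-genotype SD was 0.0507 for the members, 0.0898 for all tested genes and 0.058 for the genes of high signal. *Rpl3l* and *Rpl14*, a large subunit protein gene, had the widest intervals, and theirs are the 2 that passed 0.5.

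**Figure D2:**
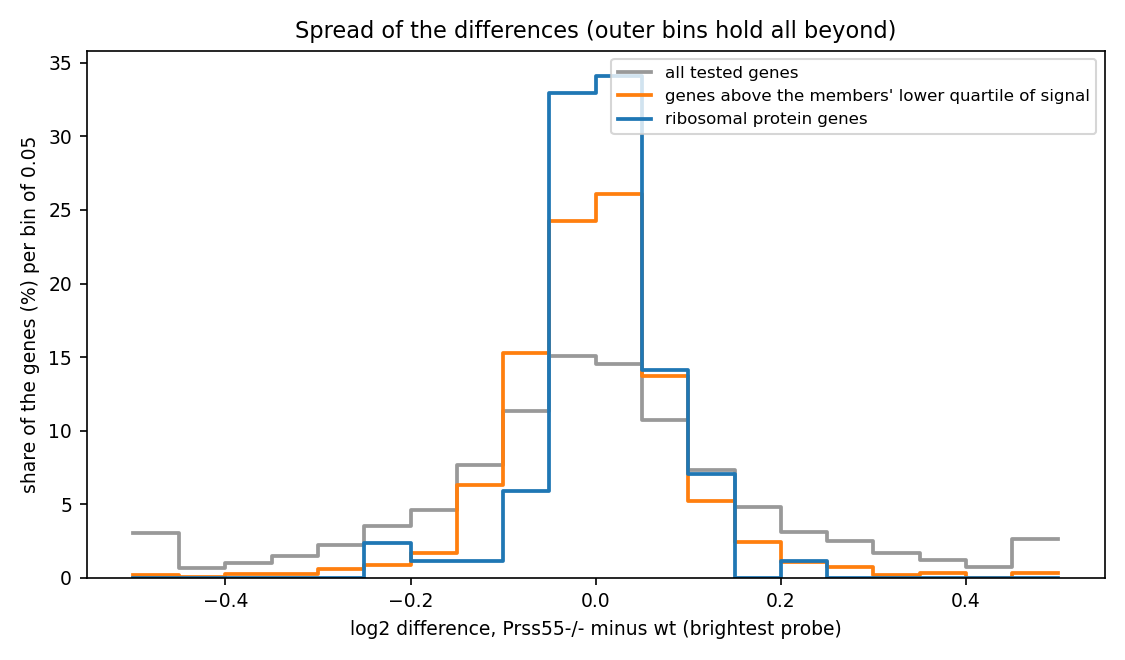
Share of genes (y axis, %) in each bin of 0.05 of the log2 difference between *Prss55*-/- and wt (x axis), for the 85 ribosomal protein genes, for the 1137 genes at or above their lower quartile of signal and for all 19181 tested genes. The members form the narrowest of the 3 curves, with 87.1% of genes within 0.1 of 0 against 79.4% and 51.7%.

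The subunits were also described apart. The 46 large subunit genes had a median log2 difference of 0.0046 and the 31 small subunit genes one of 0.018, and 0 of either passed the adjusted test. By array, the median deviation of the members from each probe's mean over 6 arrays was 0.02, -0.0014 and -0.0068 in *Prss55*-/- and 0.02, 0.01 and -0.03 in wt. The wt arrays therefore spanned the *Prss55*-/- arrays. In wt replicate 3, the array with the lowest median, 25 of 85 members were above their mean.

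For 14 of the 85 genes (16.5%) the 3 *Prss55*-/- values did not overlap the 3 wt values, against 27.4% of all tested genes. Among the genes of high signal the share was 22.2%. Of the 14, 6 were lower in *Prss55*-/- (*Rpl10*, *Rpl23a*, *Rpl37*, *Rps28*, *Rpl19* and *Rpl7l1*) and 8 were higher, among them *Rps4y2*, *Rpl35*, *Rpsa*, *Rpl10a*, *Rpl22*, *Rpl6* and *Rps24*. None of the 14 passed the adjusted test, and the lowest adjusted p of the 8 was 0.273, for *Rps24*.

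*Rpl10* encodes the protein that joins the large subunit late and sits near its catalytic centre. Its brightest probe read 14.01, 13.98 and 14.05 in *Prss55*-/- and 14.22, 14.24 and 14.19 in wt. All 3 *Prss55*-/- values were below all 3 wt values. The log2 difference was -0.21 ± 0.05 (SE, n = 3 per genotype, 95% interval -0.32 to -0.10), with a limma p of 0.0036 before and 0.0927 after adjustment. Its other probe (chrX:71518098-71518157, mm9) read 13.34, 13.17 and 13.19 in *Prss55*-/- and 13.27, 13.18 and 13.46 in wt, where the groups overlapped and the difference was -0.07 ± 0.09 (limma adjusted p = 0.697).

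The 2 *Rpl10* probes are printed because they overlap and yet are not copies of the same sequence. The array files give no genome position for the brightest probe. Its last 29 bases align with the first 29 of the other probe, with 26 matches. The mismatches, in capitals, are A2T, A15C and A21T, counted from the 5′ end of the other probe and written with its base first. Which transcripts each probe binds was not tested.
*Rpl10*, brightest probe: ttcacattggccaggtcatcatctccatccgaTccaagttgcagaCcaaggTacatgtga
*Rpl10*, other probe: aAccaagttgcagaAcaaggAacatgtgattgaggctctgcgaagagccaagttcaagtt

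*Rpl10l*, the germ-cell copy of *Rpl10* on an autosome, had no probe under its symbol, its older symbol or its RefSeq accession and was not analysed here. The comparison of *Rpl10l* with *Rpl10* therefore has no value.

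*Rpl39* encodes a short protein of the exit tunnel of the large subunit. Its probe (chrX:34622643-34622702) read 13.33, 13.21 and 13.28 in *Prss55*-/- and 13.42, 13.15 and 13.35 in wt, with the *Prss55*-/- values inside the wt range. The log2 difference was -0.03 ± 0.08 (limma adjusted p = 0.866). *Rpl39l*, its germ-cell copy on chromosome 16, read 16.31, 16.28 and 16.30 in *Prss55*-/- and 16.33, 16.39 and 16.22 in wt on its brightest probe (chr16:10174657-10174716), again inside the wt range. The difference was -0.02 ± 0.06 (95% interval -0.16 to 0.13, limma adjusted p = 0.905), and the second *Rpl39l* probe gave 0.03 ± 0.05 (limma adjusted p = 0.826). The log2 difference of *Rpl39l* relative to *Rpl39* was 0.01 (two-sided exact permutation p = 1).

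*Rpl3* encodes a large subunit protein that reaches towards the catalytic centre. Its probe (chr15:79910252-79910826) read 14.55, 14.35 and 14.38 in *Prss55*-/- and 14.45, 14.46 and 14.44 in wt, which gave a log2 difference of -0.02 ± 0.06 (limma adjusted p = 0.879). *Rpl3l* (chr17:24872413-24872681) read 6.16, 5.97 and 5.94 in *Prss55*-/- and 5.66, 5.53 and 6.18 in wt. The wt values lay on both sides of the *Prss55*-/- values. This was the largest difference among the brightest probes of the members, 0.24 ± 0.18, with a 95% interval of -0.19 to 0.66 and a limma adjusted p of 0.503. *Rpl3l* passed the background call on each of the 6 arrays, and its difference was 0.43 without wt replicate 3 (limma adjusted p = 0.0863) and 0.11 without wt replicate 2 (limma adjusted p = 0.787). The log2 difference of *Rpl3l* relative to *Rpl3* was 0.26 (two-sided exact permutation p = 0.4).

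With 3 mice per genotype an exact permutation test cannot go below p = 0.1. Of 7 paralogue and parent pairs compared, the lowest adjusted exact p was 0.35, so none passed. *Rpl22l1* against *Rpl22*, a pair of RNA-binding large subunit proteins, gave a relative log2 difference of -0.14 (exact permutation p = 0.1), made up of 0.10 ± 0.05 for *Rpl22* and -0.04 ± 0.05 for *Rpl22l1*. The second *Rpl22* probe gave 0.02 ± 0.06. The second *Rpl22l1* probe gave 0.11 ± 0.06, on the other side of 0 from its brightest. *Rps4y2*, which RefSeq now calls *Rps4l*, against the X-linked small subunit gene *Rps4x* gave 0.21 (exact permutation p = 0.2). By itself *Rps4y2* gave 0.07 ± 0.05 and *Rps4x* gave -0.14 ± 0.09 (13.33, 13.02 and 13.17 in *Prss55*-/- against 13.32, 13.27 and 13.35 in wt). The *Rps4x* value was -0.22 without *Prss55*-/- replicate 1 and -0.06 without *Prss55*-/- replicate 2. A second, dim *Rps4x* probe without a genome position (means 5.58 in *Prss55*-/- and 5.84 in wt) gave -0.26 ± 0.13 (limma adjusted p = 0.346).

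The relative log2 differences of *Rpl36al* against *Rpl36a*, of *Rpl7l1* against *Rpl7* and of *Rps27l* against *Rps27* were -0.03, 0.00035 and 0.03 (exact permutation p = 0.8, 1 and 0.1). The brightest probes of a paralogue and its parent shared no run of bases longer than 6. Only the probes were compared, and whether a probe also binds the transcript of the other gene in its pair was not tested. *Rps27a*, whose product is made as a fusion with ubiquitin, and *Rpl13a*, which has a second role in repressing translation, gave -0.0022 ± 0.06 and 0.05 ± 0.04.

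**Figure D3:**
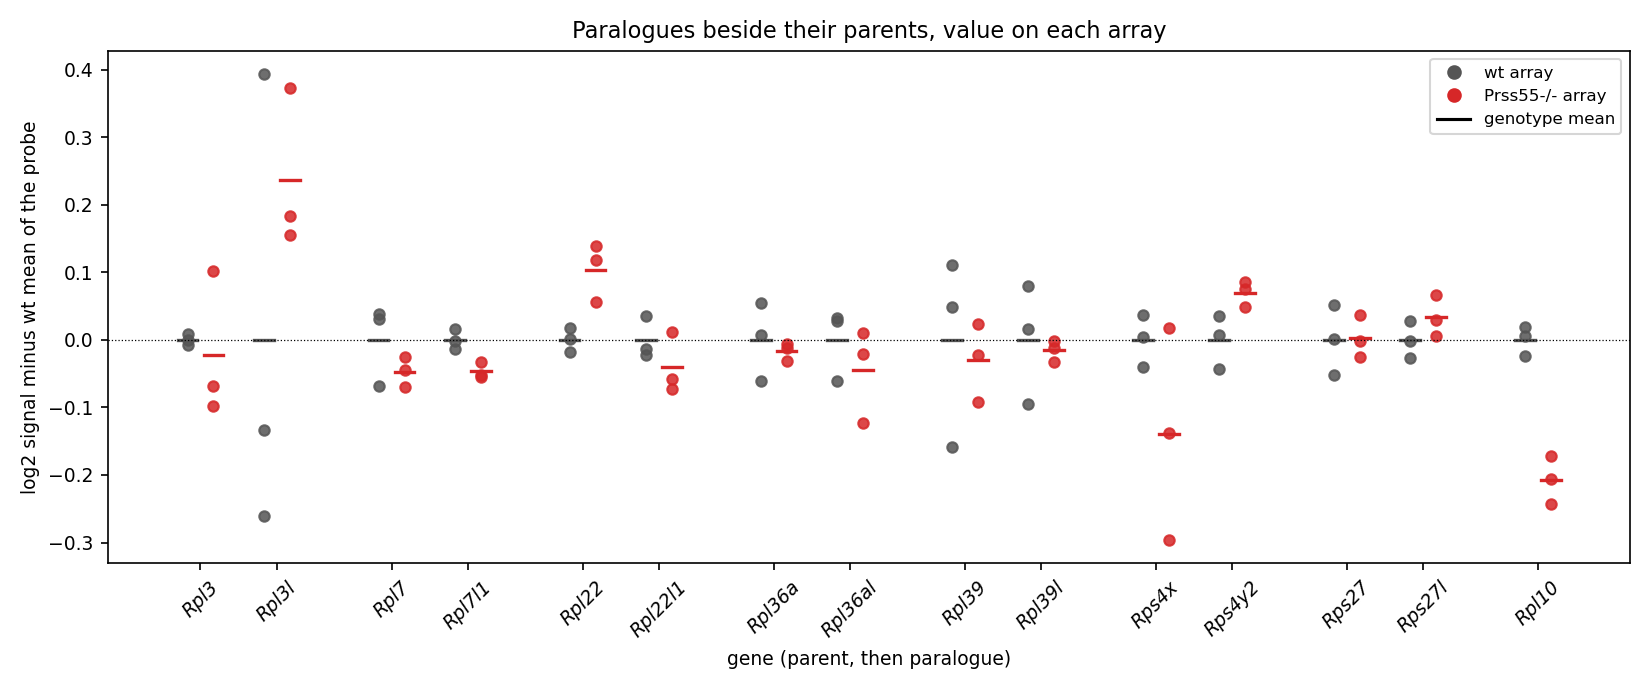
Log2 signal on each array minus the wt mean of the same probe (y axis) for parents and paralogues (x axis), with wt arrays in grey, *Prss55*-/- arrays in red and a line at each genotype mean. The groups separate for *Rpl10*, *Rpl22*, *Rpl7l1* and *Rps4y2*, and the widest scatter is that of *Rpl3l*, from 5.53 to 6.18 in wt. None of the genes drawn passed the adjusted test, and the groups separate for 27.4% of all tested genes on their brightest probe.

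The array files place a probe of 4 of the 77 core ribosomal protein genes on the X chromosome. On the brightest probe placed there the log2 differences were -0.07 (*Rpl10*), -0.14 (*Rps4x*), -0.03 (*Rpl39*) and -0.02 (*Rpl36a*), with a median of -0.05. The -0.21 of *Rpl10* comes from the probe without a position. All 4 were below 0 and 0 passed the adjusted test. Of all 77 core genes, 33 were below 0 on their brightest probe. The other *Rpl36a* probes placed on X gave -0.02 and 0.01. The sign of *Rpl36a* turned with 75th percentile scaling (0.02) and that of *Rpl39* with normexp background correction (0.0054).

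Some members with the largest differences were lower in *Prss55*-/- by value without passing. *Rpl23a*, a protein at the tunnel exit, read 16.37, 16.25 and 16.33 in *Prss55*-/- and 16.46, 16.58 and 16.45 in wt. The groups did not overlap and the log2 difference was -0.18 ± 0.06 (limma adjusted p = 0.203), against -0.03 ± 0.04 on its second probe. *Rpl14* read 8.64, 8.85 and 8.75 in *Prss55*-/- and 9.27, 8.94 and 8.64 in wt. Its groups overlapped, and the difference of -0.20 ± 0.16 (limma adjusted p = 0.532) was -0.04 without wt replicate 1 and -0.36 without wt replicate 3.

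On the higher side, *Rps24*, a small subunit protein needed for rRNA processing, read 16.82, 16.79 and 16.74 in *Prss55*-/- and 16.71, 16.58 and 16.68 in wt. Its difference was 0.13 ± 0.06 (limma adjusted p = 0.273), and its other 2 probes gave 0.0021 and -0.03. *Rps15* gave 0.13 ± 0.12, which rested on *Prss55*-/- replicate 1 at 14.51 (14.14 and 14.13 on the other two *Prss55*-/- arrays). Without that array it was 0.0071. The large subunit genes *Rpl6* and *Rpl38* gave 0.11 ± 0.05 and 0.11 ± 0.06 (limma adjusted p = 0.323 and 0.364). *Rps19bp1* gave 0.12 ± 0.06 (limma adjusted p = 0.317).

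Probes of the same gene could differ. Of 41 genes with over 1 tested probe, 11 had probes on both sides of 0, and the median gap between the lowest and highest difference of a gene was 0.05. Of the 5 probes with an unadjusted p under 0.05, 3 were not the brightest of their gene. *Rpl21*, a large subunit gene, had the widest gap, 0.61. Its brightest probe gave 0.06 ± 0.06, and its second (chr5:147648267-147648326) read 6.36, 6.42 and 6.57 in *Prss55*-/- and 6.98, 7.32 and 6.68 in wt. On that probe the groups did not overlap, and the difference was -0.54 ± 0.16 with a limma p of 0.015 before and 0.159 after adjustment.

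*Rpl7a*, another large subunit gene, gave 0.07 ± 0.06 on its brightest probe (chr2:26768694-26768753) and 0.01 ± 0.05 on its second. The third (chr2:26768740-26768798), which overlaps the first by position, read 12.28, 12.19 and 12.08 in *Prss55*-/- and 11.78, 11.40 and 11.97 in wt. The groups did not overlap there and the difference was 0.47 ± 0.15 with a limma p of 0.0195 before and 0.178 after adjustment. The second probe of *Rps19bp1* gave -0.18 ± 0.07 with a limma p of 0.0423 before and 0.244 after adjustment, opposite to the first.

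**Figure D4:**
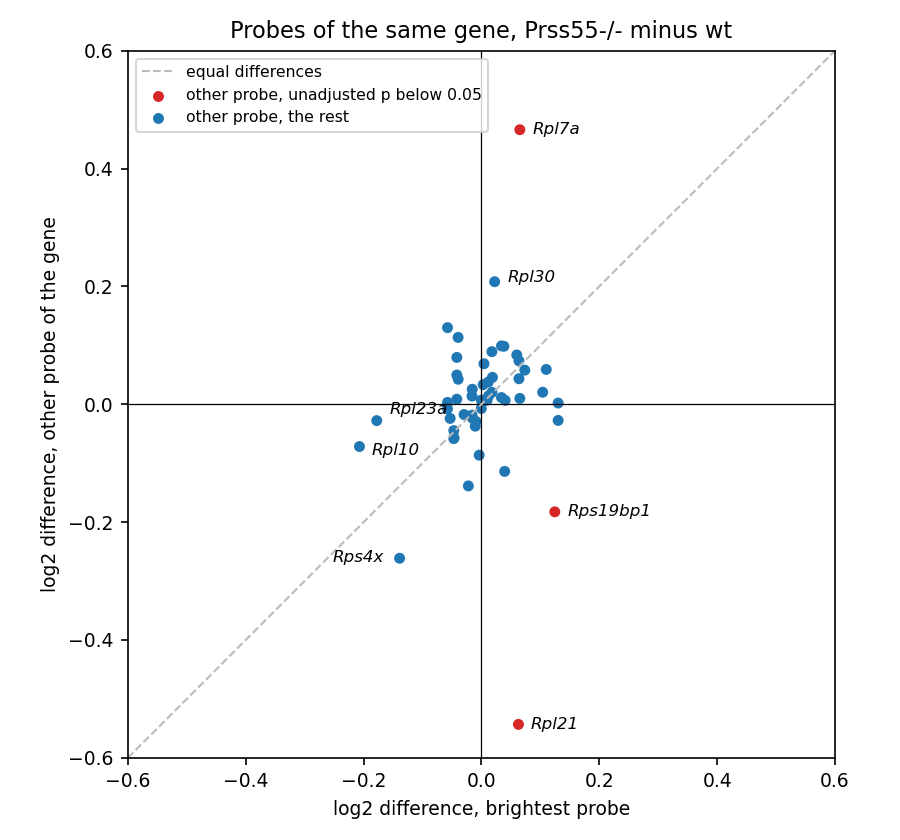
Log2 difference of the brightest probe (x axis) and of each other tested probe of the same gene (y axis) for the 41 genes with over 1 tested probe. Red points are other probes with an unadjusted limma p under 0.05 (*Rpl21*, *Rpl7a* and *Rps19bp1*), and these lie farthest from the dashed line of equal differences, at -0.54, 0.47 and -0.18.

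Sequence copies limit how well a ribosomal protein probe is tied to its gene. RefSeq names at least 1 pseudogene after 63 of the 85 members and 319 in all, with 24 for *Rpl31*, 23 for *Rps12*, 15 for *Rpl21*, 14 for *Rpl7a* and 13 for *Rpl23a*. For 3 member probes the chromosome given in the array files differs from that of the gene in RefSeq. Among them the *Rps27* probe is placed on chromosome 9 (gene on 3) and a *Rps29* probe on chromosome 2 (gene on 12). Their log2 differences were 0.0032 and 0.03. For 4 member probes no position is given. Signal of these genes may therefore include near-identical copies, and the share of it was not tested.

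Of the 145 member probes, 137 were tested, and every gene had at least 1 tested probe. The other 8, among them probes of *Rps19*, *Rps15a*, *Rps2*, *Rpl27*, *Rpl37*, *Rps6* and *Rpsa*, were not well above background on all arrays of either genotype, with mean log2 signals from 3.07 to 5.05. Of those tested, 136 were well above background on all 6 arrays. The exception was the dimmest of the 3 *Rps24* probes, which passed on 2 of 3 *Prss55*-/- arrays.

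Most of the members that could be examined have a feature the name rule did not use, a run of pyrimidines near the annotated start of transcription. RefSeq (GRCm38.p6) start windows were found for 63 of the 84 members other than *Rps19bp1*. Within 50 bases either side of the start, a run of at least 8 letters that are all C or T was present on the transcript strand in 53 of the 63 (84.1%), against 39.3% of all 27025 genes with a window. On the opposite strand, the share was 25.4% of members and 41.1% of all genes. With runs of at least 10 the shares on the transcript strand were 69.8% and 20.6%. A run is a description of the letters and not a mapped site. It could lie anywhere within the 50 bases either side, so it need not begin at the start itself.

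The stretches below, each of 30 bases, show the longest run of C or T in capitals for 4 members on the array and for the germ-cell copies *Rpl39l* and *Rpl10l*. They read along the transcript strand and come from chrX:74270836-74270865 (*Rpl10*), chrX:37085173-37085202 (*Rpl39*), chr2:26910789-26910818 (*Rpl7a*), chr14:24490711-24490740 (*Rps24*), chr16:10170192-10170221 (*Rpl39l*) and chr12:66284422-66284451 (*Rpl10l*), with *Rpl39* and *Rpl10l* on the minus strand. Inside the window the run is 10, 14, 21 and 19 bases long in the first 4, 9 in *Rpl39l* and 5 in *Rpl10l*. The runs of *Rpl10* and *Rpl39* begin 40 and 36 bases after the annotated start and reach the end of the window, so they may be longer. The others begin before the start, by 14 bases (*Rpl7a*), 37 (*Rps24*), 26 (*Rpl39l*) and 44 (*Rpl10l*). *Rps24* has another annotated start, and in that window the run begins 38 bases after the start and reaches the window's end.
*Rpl10*: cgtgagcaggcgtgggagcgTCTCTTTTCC
*Rpl39*: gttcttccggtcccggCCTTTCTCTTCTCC
*Rpl7a*: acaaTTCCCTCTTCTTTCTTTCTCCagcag
*Rps24*: agcggTCCTCTTTTCCTCCTCTCCagctcc
*Rpl39l*: acacccactgCCTCTCCCTagctcccaggc
*Rpl10l*: ctatgaTTCCCgcaaggcttgatgggtaac

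Other genes of the ribosome and of translation gave 2 calls, 1 mitochondrial ribosomal protein gene and 1 initiation factor. These were 1.32% and 2.33% of the tested genes of their lists, near the 1.71% of all tested genes. Of the 3 tested ribosomal proteins under other names 0 passed, and *Fau* (S30, made as a ubiquitin-like fusion) and *Gnb2l1* (the small subunit scaffold RACK1) gave -0.02 and 0.09. Of 76 mitochondrial ribosomal protein genes 0 were higher and 1 lower, *Mrps25*, a small subunit protein of the mitochondrial ribosome, with a median of 0.00077. *Mrps25* read 9.10, 9.17 and 9.20 in *Prss55*-/- and 9.62, 9.61 and 9.51 in wt, a fall by 0.42 ± 0.05 (limma adjusted p = 0.0317). The groups did not overlap. The mean of its probes gave -0.15 (limma adjusted p = 0.119). The call was lost without *Prss55*-/- replicate 2 or 3 or wt replicate 1 or 2 (limma adjusted p from 0.099 to 0.134), with normexp background correction (0.0581) and without the filter on dim probes (0.069).

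Of 43 translation initiation factors 0 were higher and 1 lower, *Eif4e3*, a member of the cap-binding family, with a median of -0.0012. *Eif4e3* read 10.15, 10.12 and 10.08 in *Prss55*-/- and 10.53, 10.43 and 10.61 in wt, a fall by 0.41 ± 0.06 (limma adjusted p = 0.0452). The groups did not overlap, and the call was lost when any of the 6 arrays was left out (limma adjusted p from 0.0506 to 0.195). It was also lost with normexp (0.0537), without the filter (0.0983), with slide as a random block (0.0538) and by the mean of its probes (0.0701). Of 22 elongation and termination factors and partners of pyrimidine-tract mRNAs, of 63 ribosome biogenesis and RNA polymerase I genes and of 18 S6 kinase and mTOR pathway genes, 0 passed in either direction, although single genes of these lists passed under alternatives given in the closing section. Their median log2 differences were -0.0020, -0.02 and 0.0035, beside the -0.0023 over all tested genes.

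**Figure D5:**
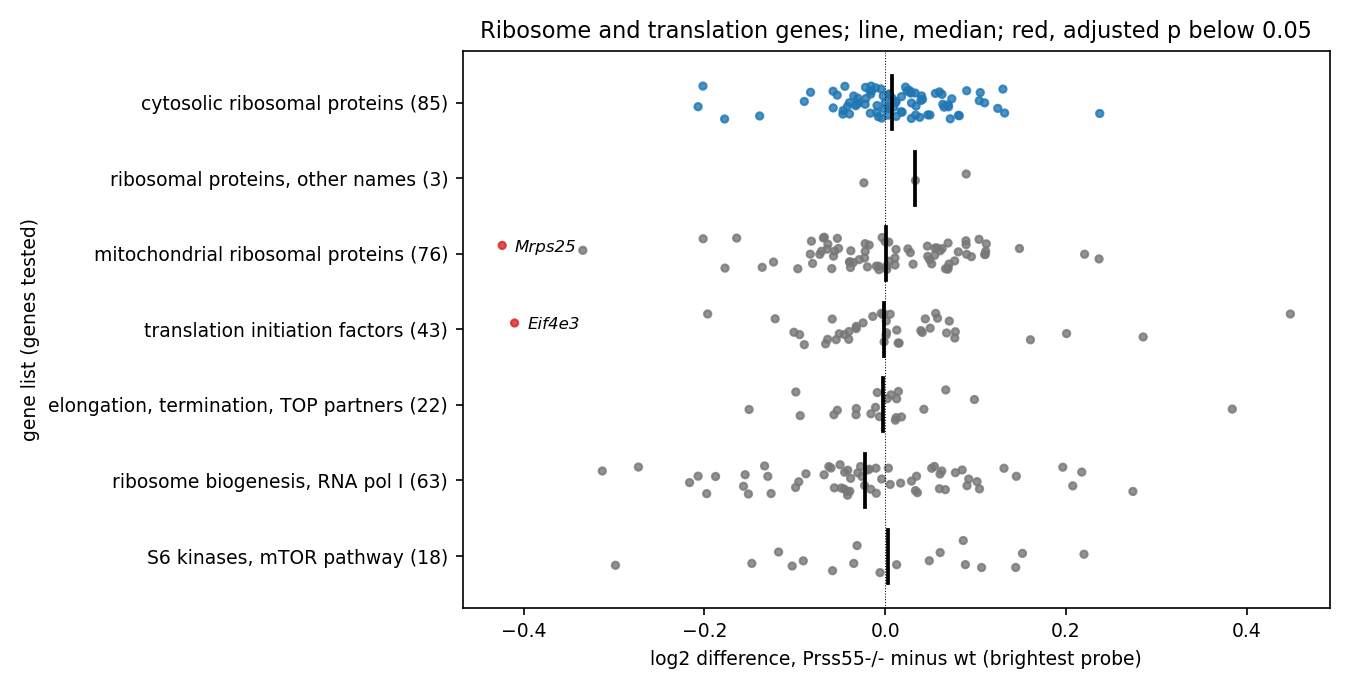
Log2 difference between *Prss55*-/- and wt (x axis) of the brightest probe of each gene in 7 lists (y axis, number of genes tested in parentheses), with a black line at each list's median. Red marks the 2 genes with a limma adjusted p under 0.05, *Mrps25* (-0.42) and *Eif4e3* (-0.41), and the 85 cytosolic ribosomal protein genes in blue hold none. Of all tested genes 1.71% had a probe that passed.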

How the data were processed

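Total testis RNA was labelled with Cy3 and hybridized to Agilent 4 × 44k arrays. The authors deposited the output of Agilent Feature Extraction 10.7 for each array, whose processed signal is a background-corrected intensity on a linear scale. They also deposited a value table of log2 values, quantile-normalized in GeneSpring per the study's methods. Positions are those of the array files, which name mm9.

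Control spots and outlier spots were left out, and processed signals under 1 were set to 1. Log2 signals were quantile-normalized and spots of a probe averaged. A probe was tested if the scanner software called it above background on every array of a genotype, in *Prss55*-/-, in wt or in both, and 28606 probes of 19181 genes passed. The genotypes were compared in R 4.3.3 with limma 3.58.1 (two-sided, Benjamini-Hochberg adjustment over tested probes), checked on simulated data. The methods' t-test is Student's test on the same values. The brightest tested probe stood for a gene, and a gene counted as called if any probe passed at 0.05. Paralogue pairs were compared by exact permutation. Labels give separate mice, and the number of arrays limits the precision.

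Genes were named if they were paralogues or their parents, had the 10 largest differences or 5 lowest p-values, had probes of opposite sign with an unadjusted p under 0.05, or passed in a pathway list. *Rpl7a* and the genes without overlap were added after their values were seen. The members, lists and tests were chosen with earlier results of these data known. Symbols matched RefSeq GRCm38.p6 for 83 of 85 members. The alternatives are named in the closing section. A few members and list genes are counted but not reported here by name.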

Additional observations from a re-analysis of the deposited data

How the results depend on the processing

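No ribosomal protein gene passed the adjusted test under any of the 15 alternatives, and the lowest adjusted p of a member probe was 0.0719, without wt replicate 3. The alternatives were 75th percentile scaling, the deposited value table, normexp background correction, no filter, only probes well above background on all 6 arrays, the methods' t-test, slide as a random block, the replicate block, leaving out each array and the mean of a gene's probes. The members' median log2 difference moved beyond its spread between replicates with 75th percentile scaling, to 0.043 (median of all tested probes 0.0019 in the reported fit and 0.023 with this scaling), and ran from -0.0031 to 0.022 when each array was left out. Member genes with an unadjusted p under 0.05 on the brightest probe numbered 1 to 5 of 85 when an array was left out, 6 by the methods' t-test and 4 by the mean of a gene's probes, where 12.9% to 21.9%, 17.2% and 20.1% of all features passed. *Rpl39l* against *Rpl39* turned to -0.048 with normexp, and ran from -0.057 to 0.13 when arrays were left out. *Prss55* stayed at -0.90 by the methods' t-test, with an adjusted p of 0.0713, and ran from -0.96 to -0.84 when arrays were left out. In the pathway lists 2 genes passed, *Mrps25* and *Eif4e3*. With slide as a random block 1 passed, *Mrps25*. Both were lost without the filter, where 1 other gene passed (*Taf1b*, 1.40), and with normexp, where 2 others did (*Tsr1* -0.35 and *Rptor* -0.39). By the methods' t-test 0 passed, as by the mean of a gene's probes, and 0 to 2 when arrays were left out, among them *Eef2k* (0.70 without *Prss55*-/- replicate 1) and *Pes1* (6.89 without wt replicate 2). These 5 were named after their values were seen, and *Taf1b* and *Pes1* passed on a probe other than their brightest. *Eef2k* and *Pes1* each passed with the named array left out and in no other setting. On their brightest probes the ribosome biogenesis and RNA polymerase I genes, *Pes1* among them, ran from -0.31 to 0.27 in the reported fit.

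Same-numbered arrays did not deviate together (correlations -0.054, -0.023 and -0.11), so no pairing by replicate number was seen in the signals. The paper describes the mice as pairs. Whether same-numbered mice were paired by litter or handling cannot be read from these correlations. With the replicate number as a block, *Prss55* stayed at -0.90 with an adjusted p of 0.101, 0 pathway genes passed, and 13 of 28606 probes passed against 346 without it.

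Of 375 values of the 25 named members under the alternatives, 354 kept their sign and their side of the threshold, 0 passed it and 21 turned sign. With 75th percentile scaling these were *Rpl36a* 0.019, *Rpl39l* 0.021 and *Rps27a* 0.019. With normexp they were *Rpl39* 0.0054, *Rps27* -0.0089 and *Rps27a* 0.033. By the mean of a gene's probes they were *Rpl21* -0.24, *Rpl22l1* 0.037, *Rpl39l* 0.0050 and *Rps19bp1* -0.029. When arrays were left out, *Rpl3* ran from -0.083 to 0.017, *Rpl36a* from -0.047 to 0.011, *Rpl39* from -0.11 to 0.025, *Rpl39l* from -0.063 to 0.024, *Rps27* from -0.023 to 0.029 and *Rps27a* from -0.043 to 0.034. The causes were not tested. *Rpl10l* against *Rpl10* has no value under any setting. The *Rpl3l*, *Rpl14* and second *Rpl21* probes had wide errors, with SE of 0.16 to 0.18.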

Other observations

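Outside the name rule, 9 probes were described in the array files as a ribosomal protein but named by a transcript, and 8 of them were tested. They gave log2 differences from -0.03 to 0.32, and 0 passed the adjusted test. The largest, a probe described as L27A, read 6.90, 7.0 and 7.12 in *Prss55*-/- and 6.73, 6.47 and 6.85 in wt a difference of 0.32 ± 0.11 with a limma p of 0.0279 before and 0.207 after adjustment. A probe described as L10 gave -0.01 ± 0.08.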
